A study of Homo sapiens with 6 samples.

Results

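The cancer-testis antigen families were taken as every probe whose platform gene symbol begins with PAGE, GAGE, XAGE, MAGEA, MAGEB, MAGEC, SSX or CTAG followed by a digit. This gave 53 of the 47289 probes with values and 41 of the 16225 gene symbols, which 18468 of the probes carried. The rule uses no measured value, but it was set with earlier results of these data known. SSX2IP met the rule by its letters only, since it encodes a protein that binds SSX2 and is no member of the SSX family. Without it there were 52 probes of 40 genes.

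Gene expression was measured in A2058, an established human melanoma cell line, in 6 RNA samples. Of these, 3 came from cells treated with CT16 siRNA and 3 from cells treated with control siRNA for 48 h. The methods of the study name CT16 siRNA1 for the arrays, so each group received a single siRNA sequence. Effects of silencing therefore cannot be told apart from other effects of that sequence. All cells grew in the same serum-supplemented medium. The labels number the samples of a group as replicates 1 to 3 and do not say whether these were separate cultures. CT16 is the protein encoded by PAGE5. Total RNA was amplified, labelled with biotin and hybridized to Illumina Sentrix Human-6 BeadChips, which measure 1 sample in 1 colour, so that each group holds 3 arrays of a single cell line.

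Cancer-testis antigens are proteins made in the germ cells of the testis and, outside them, in tumours such as melanoma. Most of their genes lie on the X chromosome in clusters of recently duplicated copies, and in most normal tissues their promoters are methylated and silent. The MAGE proteins share a domain through which they bind RING ubiquitin ligases, the SSX proteins act as transcriptional repressors, and GAGE, PAGE and XAGE are related small acidic proteins.

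The arrays differed in ways that touch the values below. The median non-normalized signal ranged from 164.4 to 190.6, and 11311 to 12561 probes had a detection p under 0.05 on the control arrays against 12895 to 13110 on the CT16 siRNA arrays. The detection p is the probability that a signal is no higher than that of the negative control beads. CT16 siRNA replicate 1 stood apart from the others, with a score of 37.53 on principal component 1 (71.8% of the variance) against -21.13 to 9.03. Of the melanocyte lineage markers, PMEL, TYR, S100B, MITF, GPR143 and SOX10 were above background, 6 of the 7 genes matched. Signals of S100B (183.7 to 210.4, detected on 4 arrays) and GPR143 (179.3 to 199.6, detected on 3) were close to the detection limit. GPR143 was detected on 1 control array and 2 CT16 siRNA arrays. Of the 6 genes, 3 had a positive and 3 a negative log2 difference, CT16 siRNA minus control siRNA. TYR, the tyrosinase of melanin synthesis, gave 678.2, 602.8 and 678.6 in controls and 565.5, 493.8 and 483.5 with CT16 siRNA, and fell by 0.50 on the log2 scale (rank product false discovery rate 0.0339, or 0.431 with the arrays shifted to a common median), and it did not pass limma. PMEL, a melanosome protein, gave 3442, 3538.3 and 4004.9 against 3028.4, 2628.8 and 3322.2, a difference of -0.35 that passed neither test. The groups did not overlap for either gene, except for PMEL with that shift, and their part in the results below was not tested. No epithelial marker (0 of 4), leukocyte marker (0 of 2) or testis germ cell marker (0 of 6) was above background. Of 2 endothelial markers, PECAM1 was above background, by detection on the 3 CT16 siRNA arrays and on 0 control arrays. Its signals were 191.6, 181.4 and 182.7 in the controls and 206, 199.5 and 249.4 with CT16 siRNA, and its part in the results was not tested.

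Sequences upstream of the genes were read from RefSeq (GRCh38.p14) for 32 of the 41 gene symbols, as the 250 bases before the annotated start. The windows of 6 genes are printed 5′ to 3′. MAGEA3 and MAGEA6 are shown because their windows were identical, MAGEB2, MAGEC1 and SSX2 because their probes carry results described below, and PAGE5 because it is the silenced gene. Capitals mark GGATGTG or its reverse complement CACATCC, a 7-base word chosen after the sequences had been seen. The windows lie at chrX:152698544-152698793, plus strand (MAGEA3), chrX:152769690-152769939, minus strand (MAGEA6), chrX:30215313-30215562, plus strand (MAGEB2), chrX:141903644-141903893, plus strand (MAGEC1), chrX:52707228-52707477, minus strand (SSX2) and chrX:55220096-55220345, plus strand (PAGE5).
MAGEA3: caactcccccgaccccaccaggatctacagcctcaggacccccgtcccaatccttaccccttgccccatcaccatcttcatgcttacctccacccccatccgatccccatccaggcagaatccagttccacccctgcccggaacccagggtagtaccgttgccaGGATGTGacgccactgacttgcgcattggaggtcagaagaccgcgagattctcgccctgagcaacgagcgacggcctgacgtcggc
MAGEA6: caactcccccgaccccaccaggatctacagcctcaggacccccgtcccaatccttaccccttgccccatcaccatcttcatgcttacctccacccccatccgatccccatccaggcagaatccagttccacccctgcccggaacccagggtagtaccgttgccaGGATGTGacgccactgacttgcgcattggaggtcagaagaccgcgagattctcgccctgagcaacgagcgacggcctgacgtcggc
MAGEB2: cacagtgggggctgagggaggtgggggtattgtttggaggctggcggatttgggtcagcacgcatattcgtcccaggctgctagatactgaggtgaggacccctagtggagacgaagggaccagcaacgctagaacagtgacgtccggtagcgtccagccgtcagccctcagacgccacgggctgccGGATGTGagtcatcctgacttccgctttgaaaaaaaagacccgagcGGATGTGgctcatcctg
MAGEC1: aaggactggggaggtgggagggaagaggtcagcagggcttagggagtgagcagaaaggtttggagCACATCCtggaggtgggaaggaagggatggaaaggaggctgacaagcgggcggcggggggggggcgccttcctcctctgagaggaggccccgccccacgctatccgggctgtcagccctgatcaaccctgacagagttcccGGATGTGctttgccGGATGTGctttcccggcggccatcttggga
SSX2: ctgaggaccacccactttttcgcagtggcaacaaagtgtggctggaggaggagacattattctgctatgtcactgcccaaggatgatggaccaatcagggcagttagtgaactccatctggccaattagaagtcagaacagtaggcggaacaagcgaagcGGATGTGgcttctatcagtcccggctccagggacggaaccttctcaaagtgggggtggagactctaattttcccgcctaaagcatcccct
PAGE5: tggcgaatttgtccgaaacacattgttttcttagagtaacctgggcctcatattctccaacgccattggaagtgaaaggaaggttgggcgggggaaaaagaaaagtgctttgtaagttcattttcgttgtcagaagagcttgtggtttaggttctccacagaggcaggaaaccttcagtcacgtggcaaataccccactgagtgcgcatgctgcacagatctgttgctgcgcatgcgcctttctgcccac

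The word occurred 1 time in the window of MAGEA3, MAGEA6 and SSX2, 2 times in that of MAGEB2, 3 times in that of MAGEC1 and 0 times in that of PAGE5. Over both strands it was present in 13 of the 32 member genes (40.62%), in 1165 of 27305 genes of all chromosomes (4.267%) and in 44 of 918 other genes of the X chromosome (4.793%). By family, it was present in 9 of 9 MAGEA genes, 2 of 7 MAGEB genes, 1 of 3 MAGEC genes and 1 of 5 genes with an SSX symbol, and in 0 of 5 PAGE and 0 of 3 XAGE genes. A gene with several annotated starts counted if any of its windows held the word. It was present in 8 of 13 genes with a probe above background and in 5 of 19 without one. Since the word was chosen after the sequences had been seen, its higher share among members was favoured by the choice, and none of these shares is a test. Close copies share their sequence, so these genes are not independent of each other, and a match of letters does not mark a site at which a factor binds. For CG dinucleotides, the highest count of any window of a gene was taken. The median was 9.5 for the members, against 12 over all genes and 13 over the other genes of the X chromosome. It was 12 for members with a probe above background and 8 for those without one, and this was not tested.

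Detection was counted first, since most cancer-testis genes are silent in any given cell. A probe counted as above background when its detection p was under 0.05 on 3 or more of the 6 arrays. This held for 20 of the 53 member probes (37.7%), which represent 19 genes, beside 25.5% of all 47289 probes. All members carry a gene symbol, whereas 28821 of all probes do not. The share among probes with a symbol, the closer comparison, was not computed at this or any other detection rule. Of the 20, 17 were detected on all 6 arrays, a rule for which the share of all probes was not computed. A further 12 probes were detected on 1 or 2 arrays, so that 32 had a detection on at least 1 array (40.3% of all probes did), and 21 were detected on none. The signals of these 33 probes, 113.9 to 231.5, carry no measured level.

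The families differed in how many of their probes passed. Above background were 7 of 15 MAGEA probes, 3 of 9 MAGEB, 1 of 5 MAGEC, 6 of 9 SSX, 1 of 5 PAGE, 2 of 2 GAGE, 0 of 5 XAGE and 0 of 3 CTAG probes. The probes above background were MAGEA1, MAGEA3, MAGEA5P, MAGEA6, MAGEA10, MAGEA11, MAGEA12, MAGEB1, MAGEB2, MAGEB10, MAGEC1, SSX1, SSX2 with both of its probes, SSX3, SSX4, SSX5, PAGE1, GAGE4 and GAGE7. MAGEA5P is annotated as a transcribed pseudogene. Its probe and that of MAGEA11 were detected on 3 and 4 arrays, with signals of 181 to 204.2 and 178.4 to 210.9, within the range of the probes that did not pass.

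**Figure D1:**
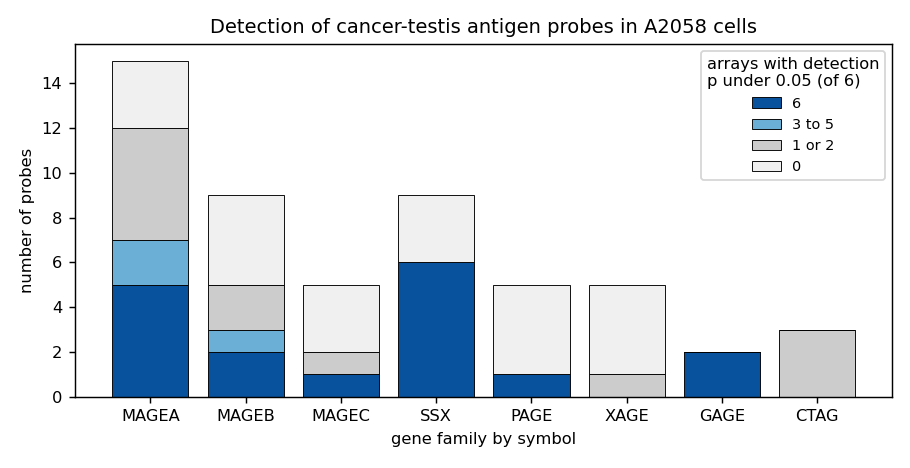
Number of probes in each gene family, split by the number of the 6 arrays on which the detection p was under 0.05. All 3 CTAG probes fall in the class of 1 or 2 arrays, 4 of 5 XAGE probes in that of 0 arrays, and 6 of 9 SSX and 5 of 15 MAGEA probes in that of 6 arrays.

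PAGE5, the target of the siRNA, was not detected on any array. Its signals were 194.8, 151.7 and 153.3 in control siRNA replicates 1, 2 and 3 and 161.8, 170.6 and 161 in CT16 siRNA replicates 1, 2 and 3, with detection p from 0.178 to 0.815. The groups overlapped, no fold change is given, and the arrays offer no check of the silencing. An undetected probe does not show that the gene is silent. The study describes A2058 as CT16 positive and reports lower CT16 mRNA with its siRNAs in these cells, from measurements other than the arrays. It also reports equal MAGE-1 and GAGE-1 protein by immunoblot in A2058 cells given CT16 siRNA. By RT-PCR it did not detect PAGE2B in its melanoma cell lines. PAGE2B, PAGE3 and PAGE4 were not detected on any array either, and PAGE1 alone of the family was above background. Among the 5 PAGE genes the upstream windows were identical over 45.2% to 60.7% of aligned columns, the highest value being that of PAGE2B with PAGE5. The median of these pairs was 47.7%. Pairs within MAGEB went down to 42.5%, and unrelated windows were not aligned, so the low end need not mark relatedness.

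CTAG1B, which encodes the vaccine antigen NY-ESO-1, was detected on 2 arrays, both with CT16 siRNA, at signals of 171.8 to 197.4 in controls and 180.6 to 210.1 with CT16 siRNA. Its near-identical copy CTAG1A was detected on 1 array and CTAG2, which encodes the related LAGE-1, on 2. Single detections were also found for MAGEA2B, MAGEA9, MAGEB6, MAGEB18, MAGEC2, 1 of 3 XAGE3 probes and 1 of 2 MAGEA6 probes. Of 3 MAGEA2 probes, 2 were each detected on 2 CT16 siRNA arrays. The genes with no detection by any probe were MAGEA4, MAGEA8, MAGEB3, MAGEB4, MAGEC3 (3 probes), XAGE2, XAGE5, SSX2IP and the 4 PAGE genes named above.

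Close paralogs limit what a symbol stands for. Of the 41 symbols, 39 were found in the RefSeq annotation and 38 of these lie on X, SSX2IP being the gene on chromosome 1. In the order of members along X, MAGEA3, MAGEA2B, MAGEA12, MAGEA2 and MAGEA6 follow one another, as do SSX5, SSX1, SSX3 and SSX4. The upstream windows of MAGEA3 and MAGEA6 matched at 250 of 250 bases, as did those of MAGEA2 and MAGEA2B. MAGEA12 and MAGEA2 matched at 228 of 258 aligned columns (88.4%), and SSX2 and SSX5 at 229 of 257 (89.1%). Over all 36 MAGEA pairs the median identity of the windows was 55.7%. The value depends on which annotated starts were paired. MAGEA12 and MAGEA2B matched at 62.3%, although MAGEA2 and MAGEA2B had identical windows. Since the windows lie upstream of the annotated start, they do not measure how alike the transcripts are or how far probes share signal.

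GAGE4 and GAGE7 could not be placed as genes of their own. The annotation lists them as older symbols of GAGE1 and GAGE12F, among 12 GAGE genes, all on X, so the signal of either probe may come from several copies. The probe sequences were not used here, and how far a MAGEA3 probe also binds MAGEA6 RNA, or an SSX2 probe SSX5 RNA, was not tested.

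Probes of 1 gene did not always pass together. Of 8 genes with several probes, SSX2 alone had all of them above background, MAGEA6, MAGEB1, SSX4 and SSX5 had 1 above and the rest below, and MAGEA2, MAGEC3 and XAGE3 had none. The second MAGEA6 probe gave 152.6 to 199.7 on the 6 arrays and was detected on 1. The second SSX4 and SSX5 probes, at 145.3 to 193.1 and 113.9 to 162.4, were detected on 0 arrays.

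**Figure D2:**
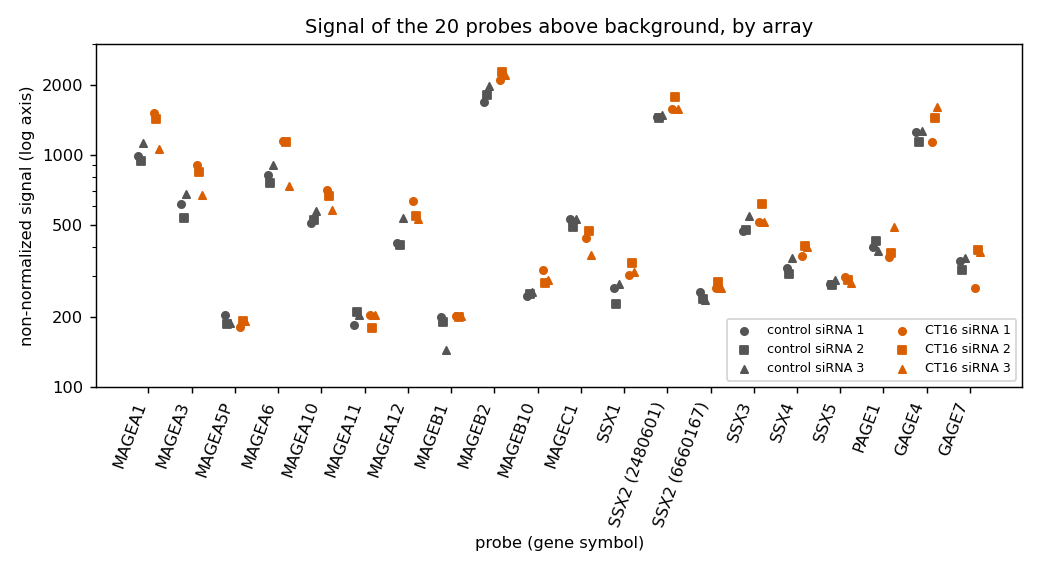
Non-normalized signal on a log axis for the 20 member probes above background, with grey points for control siRNA and orange points for CT16 siRNA and 1 marker shape per replicate number. MAGEC1 is lower on the 3 CT16 siRNA arrays (369.5 to 467.6) than on the 3 control arrays (486.3 to 527.2), and MAGEB2 is higher (2098.8 to 2273 against 1686.2 to 1983.5), while levels of different probes are not comparable.

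The comparison of CT16 siRNA with control siRNA asked whether treatment with siRNA against 1 cancer-testis antigen was accompanied by a change in others. Signals were set on the log2 scale and quantile-normalized, and 12082 probes above background were fitted with limma. By limma with Benjamini-Hochberg adjustment, 0 of the 20 member probes had an adjusted p under 0.05, beside 0.0% of the 12082 probes tested, and the smallest adjusted p of a member was 0.345. At an unadjusted p under 0.05 limma called 1 member probe (5%), MAGEC1, beside 9.57% of all probes (4.39% higher and 5.17% lower with CT16 siRNA). By the rank product, the test named in the methods of the study, 0 members passed a false discovery rate of 0.05 in either direction, beside 0.211% of 47289 probes higher and 0.256% lower with CT16 siRNA. An exact permutation test of 3 against 3 arrays cannot give a two-sided p under 0.1.

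Among the 20 probes, 13 had a positive and 7 a negative log2 difference, CT16 siRNA minus control siRNA, with a median of 0.06. Over all 12082 probes 50.1% were positive, with a median of 0.0003. When the arrays were shifted to a common median in place of quantile normalization, the median of all probes above background itself moved to 0.10 and that of the members to 0.22, and MAGEC1 was then the only member below 0. Signs of the smaller differences therefore depend on the scaling. The 95% intervals of 19 of the 20 probes held 0, and all bounds lay between -0.69 and 0.62, so that each interval leaves out a change of 1 log2 unit on this uncorrected signal scale, on which background compresses differences.

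Without overlap between the groups, 4 probes were higher with CT16 siRNA (20%, beside 7.39% of all probes), MAGEA3, MAGEA10, MAGEB1 and MAGEB2. MAGEB1 was above background through the CT16 siRNA arrays, with detection on 1 control array only, so its place among them was favoured by the filter. Of the 17 member probes detected on all 3 control arrays, 3 were higher and 1 was lower without overlap. The share of all probes under that filter was not computed, so these counts have no background to be read against. MAGEC1 alone was lower without overlap (5%, beside 8.95% of all probes). With the median shift the probes higher without overlap were MAGEB1, MAGEB2, MAGEB10, SSX1 and SSX2, beside 10.48% of all probes, and 0 were lower. Leaving out CT16 siRNA replicate 1, the array that stood apart, gave 8 higher, beside 11.21% of all probes, and 1 lower, beside 11.16%. The 8 were MAGEA3, MAGEA10, MAGEB1, MAGEB2, SSX1, SSX2, SSX4 and GAGE7, and the lower one was MAGEC1.

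**Figure D3:**
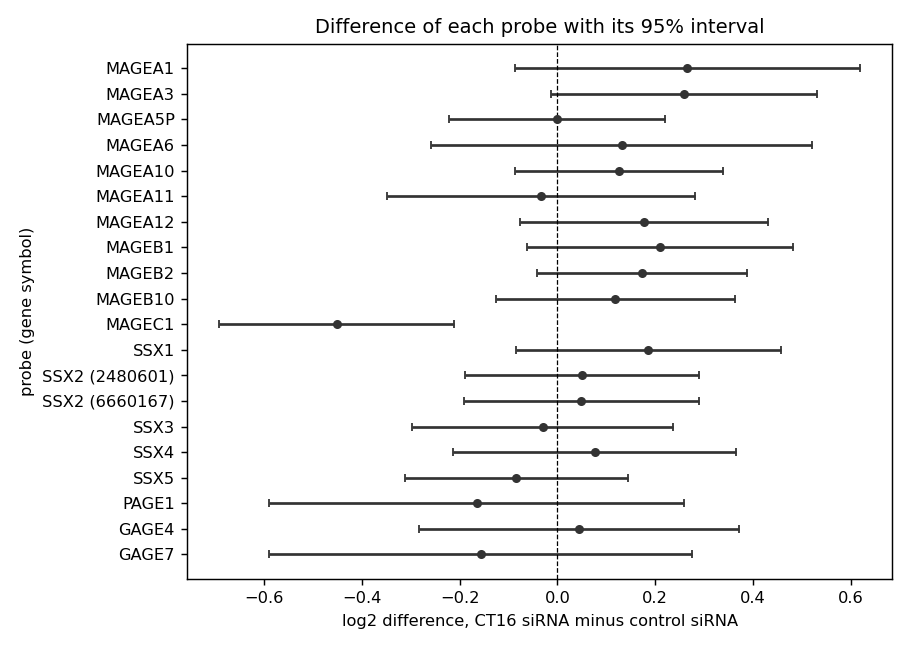
Log2 difference, CT16 siRNA minus control siRNA, of each member probe above background, with the 95% interval from limma (3 arrays per group). The interval of MAGEC1, -0.69 to -0.21, is the 1 that leaves out 0, and with the arrays shifted to a common median the differences of MAGEA5P, MAGEA11, SSX3, SSX5, PAGE1 and GAGE7 change from negative to positive.

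MAGEC1, also called CT7, encodes a MAGE protein with a long run of repeats ahead of its MAGE domain. Its non-normalized signals were 527.1, 486.3 and 527.2 in control siRNA replicates 1, 2 and 3 and 437.6, 467.6 and 369.5 in CT16 siRNA replicates 1, 2 and 3. Each CT16 siRNA array was below each control array. After normalization the log2 values were 9.15, 9.07 and 9.03 in controls and 8.55, 8.77 and 8.58 with CT16 siRNA, a difference of -0.45 (SE 0.10, n = 3 per group) or 0.731 of the control level. Its limma adjusted p was 0.345 and its rank product false discovery rate 0.0916. That rate lies under 0.1, which held for 207 probes (0.438%) in the lower direction. Its difference ranked 226 from the most negative of the 12082 probes.

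The difference of MAGEC1 kept its sign in each alternative setting run, but its size did not hold. It was -0.67 with neqc background correction and -0.24 with the median shift, where the groups overlapped and the limma adjusted p was 0.554. The false discovery rate ranged from 0.0603 without CT16 siRNA replicate 1 to 0.811 with the median shift. Without control siRNA replicate 1, 2 or 3 it was 0.500, 0.654 and 0.484. Its relatives MAGEC2 and MAGEC3 were not above background and give no comparison.

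The MAGEA genes form the cluster in which MAGEA1, the first tumour antigen of this kind to be cloned from a melanoma, was found. Of 7 probes above background, 5 had a positive and 2 a negative difference, with a median of 0.13, and none passed limma or the rank product. Of the 5 bright probes, each was lower in CT16 siRNA replicate 3 than in replicate 1. MAGEA1 had signals of 989, 942.4 and 1122.8 in control siRNA replicates 1, 2 and 3, and of 1514.2, 1426.9 and 1053.4 in CT16 siRNA replicates 1, 2 and 3. CT16 siRNA replicates 1 and 2 lay above all controls and replicate 3 among them. The log2 difference was 0.27 (SE 0.15, limma adjusted p 0.570).

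MAGEA3, which encodes an activator of the ubiquitin ligase TRIM28 and has been used in cancer vaccines, gave 611.8, 533 and 677.5 in controls and 904.9, 846.5 and 672.7 with CT16 siRNA. Replicate 3 with CT16 siRNA was again near the controls, and on the normalized scale it was above the highest of them by a small margin (9.40 against 9.38). The log2 difference was 0.26 (SE 0.12, limma adjusted p 0.525, rank product false discovery rate 0.592). MAGEA6, whose upstream window equals that of MAGEA3, gave 816.3, 755.3 and 905.2 in controls and 1143.7, 1131.5 and 733.4 with CT16 siRNA. Here CT16 siRNA replicate 3 was below all controls, and the difference was 0.13 (SE 0.17, limma adjusted p 0.784).

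MAGEA10 and MAGEA12 showed smaller differences. MAGEA10 gave 508.5, 521.3 and 572.9 in controls and 702.1, 666.9 and 578.2 with CT16 siRNA, a log2 difference of 0.13 (SE 0.09, limma adjusted p 0.627) with no overlap. MAGEA12 gave 417.6, 408.3 and 536.5 in controls and 634.3, 546.8 and 529.2 with CT16 siRNA, a difference of 0.18 (SE 0.11, limma adjusted p 0.580). Of its CT16 siRNA arrays, replicate 2 lay below control replicate 3 on the normalized scale, so the groups overlapped, and replicate 3 lay above all controls.

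Over these 5 MAGEA probes the median deviation from the control mean was 0.35, 0.30 and 0.05 log2 units in CT16 siRNA replicates 1, 2 and 3, against 0.04, -0.08 and 0.04 in control replicates 1, 2 and 3. Without CT16 siRNA replicate 3 the difference of MAGEA6 was 0.32 and that of MAGEA1 0.42, with limma adjusted p of 0.0939 and 0.0605, while limma then called 313 probes of all those tested. Without CT16 siRNA replicate 1 the same differences were 0.03 and 0.15. The difference of MAGEA6 thus moved with a single array, and since copies may share signal the 5 probes are not 5 independent measurements. The dim probes MAGEA11, whose protein binds the androgen receptor, and MAGEA5P had differences of -0.03 and -0.00, both of which turned positive, to 0.002 and 0.006, with the median shift.

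**Figure D4:**
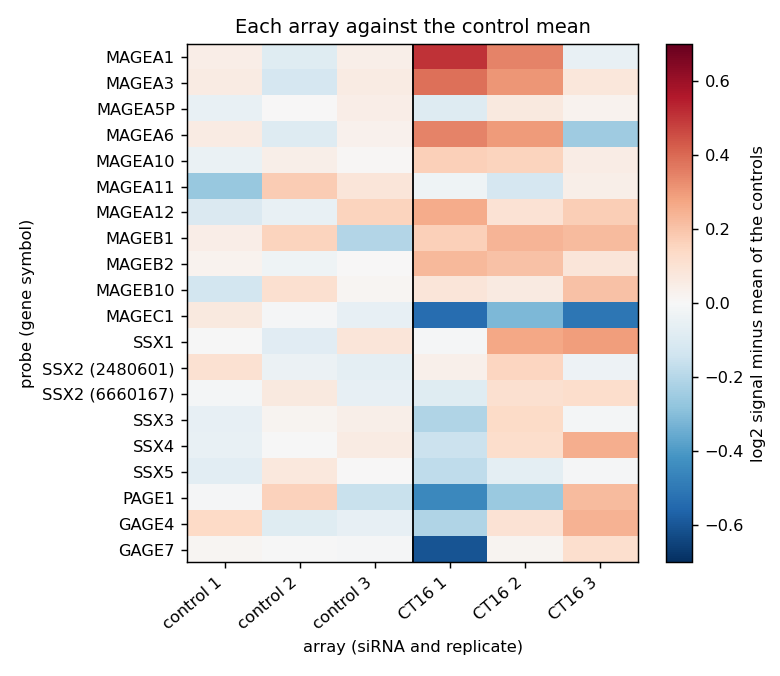
Normalized log2 signal of each array minus the mean of the 3 control arrays, for the 20 member probes above background. The 5 bright MAGEA probes have medians of 0.35, 0.30 and 0.05 in CT16 siRNA replicates 1, 2 and 3, with MAGEA12 an exception in that replicate 3 is higher than replicate 2, the GAGE probes are blue in replicate 1, and MAGEC1 is blue in all 3 replicates.

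The MAGEB genes lie apart from MAGEA on the short arm of X. Of 3 probes above background, MAGEB2 and MAGEB10 were detected on all 6 arrays, and both had a positive difference under quantile normalization and under the median shift. MAGEB1 entered through its detection on the CT16 siRNA arrays, and none of the 3 passed a test. MAGEB2, whose protein has been described in nucleoli, gave 1686.2, 1813.2 and 1983.5 in controls and 2098.8, 2273 and 2196.7 with CT16 siRNA. Each CT16 siRNA array exceeded each control, with normalized values of 10.90, 10.85 and 10.88 against 11.11, 11.08 and 10.97. The log2 difference was 0.17 (SE 0.09, limma adjusted p 0.558), with a 95% interval of -0.04 to 0.39.

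MAGEB1 was close to the detection limit. Its 1 probe above background gave 199.7, 189.4 and 144.7 in controls and 201.6, 200 and 201.5 with CT16 siRNA, and was detected on 1 control array and 3 CT16 siRNA arrays. The log2 difference of 0.21 (SE 0.12, limma adjusted p 0.563) therefore compares values of which 2 were not above background. The other 2 MAGEB1 probes were detected on 0 arrays. MAGEB10 gave 246.3, 250.5 and 256.8 in controls and 318.5, 281.4 and 287.8 with CT16 siRNA, and on the normalized scale the groups overlapped, with a difference of 0.12 (SE 0.10, limma adjusted p 0.680).

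The SSX genes encode repressors of transcription, and SSX1 and SSX2 are the genes fused to SS18 in synovial sarcoma. Of 6 probes above background, 4 had a positive and 2 a negative difference, with a median of 0.05, and none passed a test. With the median shift all 6 were positive, SSX3 at 0.17 and SSX5 at 0.08, with a median of 0.20. The probe of SSX2 numbered 2480601 gave 1461, 1443.5 and 1489.8 in controls and 1574.6, 1774.4 and 1574.2 with CT16 siRNA. Before normalization each CT16 siRNA array was higher than each control, but after it the groups overlapped (10.68, 10.54 and 10.50 against 10.61, 10.73 and 10.54). The other SSX2 probe, 6660167, gave 255.8, 238.5 and 236.1 in controls and 267, 284.1 and 266.2 with CT16 siRNA, and both probes had a log2 difference of 0.05 (SE 0.10).

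SSX1 gave 265.9, 227.5 and 276.9 in controls and 302.8, 340.3 and 313.2 with CT16 siRNA. Its difference of 0.19 (SE 0.12, limma adjusted p 0.582) was the highest of the family, and CT16 siRNA replicate 1 overlapped the controls after normalization. SSX3 gave 471.2, 476.3 and 546.3 in controls and 515.2, 613.8 and 510.8 with CT16 siRNA, a difference of -0.03. SSX4 (324.4, 307.2 and 360.3 in controls, 365.7, 402.4 and 401.6 with CT16 siRNA) had a difference of 0.08. SSX5 (276.8, 274 and 289.4 in controls, 297.2, 289.9 and 280.6 with CT16 siRNA) had a difference of -0.08. In 4 of the 6 SSX probes CT16 siRNA replicate 1 was below all controls after normalization, and in 5 replicate 2 was above all controls.

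GAGE4 and GAGE7 belong to a family first found through an antigen recognized by T cells on a melanoma. GAGE4 gave 1249.3, 1139.4 and 1261.1 in controls and 1139, 1438.7 and 1600.1 with CT16 siRNA, a log2 difference of 0.04 (SE 0.14). GAGE7 gave 349.3, 320 and 358.3 in controls and 267.1, 389.4 and 381.5 with CT16 siRNA, a difference of -0.16 (SE 0.19). For both probes CT16 siRNA replicate 1 was below all controls and replicate 3 above them after normalization. Without replicate 1 the differences were 0.18 and 0.07, and with the median shift they were 0.22 and 0.03, so the sign of GAGE7 rested on that array and on the scaling.

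PAGE1 was the 1 gene of the PAGE family with a measured level. It gave 401.5, 426.4 and 383.1 in controls and 361.9, 377.2 and 486.3 with CT16 siRNA. Replicates 1 and 2 with CT16 siRNA were below all controls and replicate 3 above them after normalization. The log2 difference was -0.17 (SE 0.18, limma adjusted p 0.745), with a 95% interval of -0.59 to 0.26. It was -0.02 without CT16 siRNA replicate 1 and 0.04 with the median shift.

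Genes around these families were read from 4 lists. Of 74 listed cancer-testis antigens of other families, 55 were matched and 18 were above background, 14 with a positive and 4 with a negative difference (median 0.15), or 16 and 2 with the median shift. OIP5, a centromere assembly factor, had the highest, 0.40, and ROPN1, a sperm sheath protein, the lowest, -0.32, with limma adjusted p of 0.531 and 0.477. OIP5 gave 431.5, 337.4 and 425.7 in controls and 760.9, 626.3 and 405.4 with CT16 siRNA, so that replicate 3 lay among the controls. ROPN1 gave 523.9, 463.5 and 498.9 in controls and 468.6, 438.5 and 430 with CT16 siRNA. How far the signs in this list rest on single arrays was not tested. PRAME, a melanoma antigen named here after its values were seen, gave 1304.2, 1497.1 and 1926.8 in controls and 1797.7, 1881.8 and 1728.1 with CT16 siRNA, with overlap and a difference of 0.13. None of the 18 genes passed limma or the rank product.

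The MAGE genes outside the cancer-testis families are expressed in many normal tissues, and 8 were above background, 2 with a positive and 6 with a negative difference (median -0.11), or 4 and 4 with the median shift (median 0.0002). MAGED1, which encodes a partner of the p75 neurotrophin receptor, gave 2790.7, 3072.6 and 3270.2 in controls and 2073.9, 2486.7 and 2496.9 with CT16 siRNA. All CT16 siRNA arrays were below all controls, with a log2 difference of -0.44 (SE 0.09), a limma adjusted p of 0.303 and a rank product false discovery rate of 0.0917. With the median shift its groups overlapped, and the difference was -0.34 and the rate 0.506. MAGEF1 had the highest difference of this list, 0.25 (limma adjusted p 0.633).

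The list of DNA methylation machinery and its partners includes genes that keep cancer-testis genes silent in normal tissues, but not all of its genes do so. Of this list, 11 genes were above background, 8 with a positive and 3 with a negative difference (median 0.09), or 11 and 0 with the median shift. The DNA repair glycosylase MBD4 had the highest, 0.42 (SE 0.23, limma adjusted p 0.560), and the deacetylase HDAC1 the lowest, -0.09, or 0.02 with the median shift. MBD4 gave 822.4, 662.2 and 831.5 in controls and 1560.6, 1054.7 and 834.5 with CT16 siRNA, so that replicate 3 was again near the controls. Of the protein partners of MAGE, SSX and GAGE, 16 were above background, 9 with a positive and 7 with a negative difference (median 0.08), or 14 and 2 with the median shift. The nucleolar protein NPM1 had the highest, 0.46 (SE 0.34), and the ubiquitin ligase TRIM69 the lowest, -0.31 (SE 0.10), with limma adjusted p of 0.628 and 0.481. NPM1 gave 3783, 3239.1 and 4578.2 in controls and 7357.4, 5912.2 and 3532.3 with CT16 siRNA. Its replicate 3 with CT16 siRNA lay among the controls before normalization and below them after it. In these 3 lists, too, no gene passed limma or the rank product.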

How the data were processed

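Total RNA of 3 A2058 samples per group was measured, with groups and replicate numbers as the labels give them. Whether the replicates were separate cultures is not stated there. Standard errors, intervals and p-values treat the arrays as independent. For each probe the authors deposited a linear signal intensity, averaged over beads and not normalized between arrays, and a detection p-value. They also deposited intensity values quantile-normalized in Bioconductor, used here as an alternative. Which software summarised the beads, whether background was subtracted, and on which genome build probes were placed were matters not given in the sources used here. Of 47296 probes, 7 were empty. Symbols came from the platform annotation, which left 28821 probes unnamed, and the latter were not searched for further members.

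The log2 signal was quantile-normalized without background correction. Limma 3.58.1 in R 4.3.3 (lmFit, eBayes, Benjamini-Hochberg adjustment) was fitted to the 12082 probes with a detection p under 0.05 on 3 or more arrays. The rank product ranked 9 pairwise log2 ratios over 47289 probes, with 100 permutations within arrays and a fixed seed. The code for it was written for this work from the published algorithm, without the RankProd package, and both tests were tested on simulated data. Genes were matched to RefSeq promoters by symbol or gene ID, and aligned with Biopython 1.88. Figures used matplotlib 3.10.9 in Python 3.11.15.

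The members and lists were chosen with earlier results of these data known. Every member above background, PAGE5 and its relatives, and members detected on at least 1 array were named, and of each list, read by the brightest probe of a gene, the genes with the largest and smallest difference. Protein identity between paralogs was planned but no protein sequences were used here, so identity was taken over the upstream windows. Alternatives were other detection rules, no filter, a strict filter (detection p under 0.01 on 6 arrays), neqc (offset 16), the deposited normalized values, arrays shifted to a common median, the replicate number as a block, an intensity trend with robust fit, another seed, and each array left out. The number of arrays limits the precision.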

Additional observations from a re-analysis of the deposited data

How the results depend on the processing

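No member passed limma or the rank product under any alternative, with a smallest limma adjusted p of 0.0605 and a smallest false discovery rate of 0.0603. Over all probes limma called 0 in each setting except 10 with CT16 siRNA replicate 1 left out and 313 with replicate 3 of that group left out. Members above background numbered 18 at a detection p under 0.01, 17 on all 6 arrays, 32 on 1 or more arrays (beside 40.3% of all probes) and 19 to 20 with each array left out. Apart from that 40.3%, no share of all probes was computed for these rules, so the counts have no background to be read against. The median difference of 0.06 was 0.12 with neqc, 0.22 with the median shift and 0.03 to 0.11 with each array left out. Probes without overlap numbered 9 without CT16 siRNA replicate 1 (8 higher and 1 lower, beside 11.21% and 11.16% of all probes). Among those detected on all 3 control arrays they numbered 4, with no share of all probes computed. These counts and those under neqc, the median shift and the deposited values were chosen after seeing the data.

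Of 257 values of single probes under alternatives, 239 kept their sign and 18 did not, 11 of these with an array left out. MAGEA5P became 0.0040 with neqc. With the median shift GAGE7 became 0.032, MAGEA11 0.0024, MAGEA5P 0.0058, PAGE1 0.042, SSX3 0.17 and SSX5 0.083. With each array left out GAGE4 ranged from -0.056 to 0.18, GAGE7 from -0.29 to 0.068, MAGEA11 from -0.18 to 0.055, MAGEA5P from -0.035 to 0.043, SSX2 (2480601) from -0.0014 to 0.10, SSX3 from -0.11 to 0.062 and SSX4 from -0.013 to 0.19. The cause was not tested.

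The labels do not say whether equal replicate numbers pair the samples. Deviations from the group means correlated at 0.42, 0.02 and -0.41 for replicates 1, 2 and 3. For 1 of 6 arrays the best correlation was with its own number. With 3 arrays per group and CT16 siRNA replicate 1 standing apart, these values cannot decide whether the design was paired. With the replicate number as a block, 0 members passed limma, 0 passed the rank product, and the median difference was 0.06.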
